A study of Mus musculus with 6 samples.

Results

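The 10 genes described here, Ezh2, Mcl1, Ptgs2, Atxn1, App, Dnmt3a, Stmn1, Slc12a2, Ank2 and Mycn, have been published as targets of the microRNA miR-101. Their probes were taken by gene symbol from the array's own annotation, where they are 10 of 34797 gene names. The genes themselves were chosen with earlier results of these data known. They are covered by 14 of the 55681 different non-control probes. Total RNA of mouse brain synaptosomes, a fraction of sealed synaptic endings made by homogenising tissue, was measured on 6 one-colour Agilent arrays. There were 3 knock-in and 3 wild-type samples. The labels give neither allele, strain nor age. The title of the series places the work in the fragile X-associated tremor/ataxia syndrome and in the control of FMR1 by miR-101 and 2 other microRNAs. For the samples named knock-in, also in the series design, the genotype entry says knock-out; knock-in is used here. Whether each sample is a separate animal is not given in the labels, so p-values reflect only how far these samples scatter, and that scatter may be technical.

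A microRNA is a short RNA that guides an Argonaute protein to messenger RNAs, mostly through pairing of its seed, bases 2 to 8, with a short match in the 3' untranslated region. The bound message is then translated less and often degraded sooner. In brain, miR-101 is known as a regulator of excitability during development, where Slc12a2 and Ank2 are among its targets, and in cancer cells as a repressor of Ezh2. The mature sequences from RefSeq (GRCm38.p6) are shown because their seeds define the sites searched for in the probes; the seed is in capitals.

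mmu-miR-101a-3p: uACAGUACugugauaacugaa

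mmu-miR-101b-3p: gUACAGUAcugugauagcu

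mmu-miR-101c: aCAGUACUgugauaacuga

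The 3 share most of their letters but start at different bases, so the DNA matches to their seeds overlap. They were searched on the sense strand of the probes only. The match to miR-101a-3p is GTACTGT, found in 0.443% of the 29318 probes that passed the signal filter. The match to miR-101b-3p is TACTGTA, found in 0.59%. The match to miR-101c is AGTACTG, found in 0.402%. Of the 14 member probes 1 holds a match, the TACTGTA in the brighter probe of Stmn1, at chr4:134029709-134029715 on the plus strand of mm9. It is shown with its neighbouring bases, chr4:134029698-134029727, and with the match in capitals.

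Stmn1 site: tcaccagatgcTACTGTActtgaatggtta

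The median log2 difference (knock-in minus wild type) was -0.017 over the 257 kept probes with a match to miR-101a-3p or miR-101b-3p, and -0.05 over all kept probes. A probe shows only a small window of a transcript, and the untranslated regions themselves were not searched.

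All 14 member probes were well above background on all 6 arrays and passed the filter. Signals below are log2 values relative to the 75th percentile of each array, and a difference is knock-in minus wild type on that scale. Of the 14 probes 9 had a difference above 0 and 5 below, against 41.7% above 0 among all kept probes. Their median difference was 0.09, beside -0.05 over all kept probes. None of the 14 passed limma's adjusted p of 0.05 over 29318 probes (lowest adjusted p = 0.431), a threshold that 2 probes, or 0.00682%, passed. At an unadjusted p under 0.05, 3 member probes read higher (Ptgs2 and 1 each of Atxn1 and Mcl1) and 2 lower (1 each of Atxn1 and Ank2), where 4.29% of all kept probes were higher and 6.13% lower, 10.4% in all. The groups did not overlap for 4 member probes that read higher and 3 that read lower, against 7.93% and 12% of all kept probes, 19.9% together. On slide 1 alone, which holds the knock-in arrays and wild-type replicate 3, 9 of the 14 had a knock-in mean above the wild-type array, against 45.2% of all kept probes. With 3 arrays against 3, an exact permutation test of a single probe cannot go below 0.1.

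**Figure D1:**
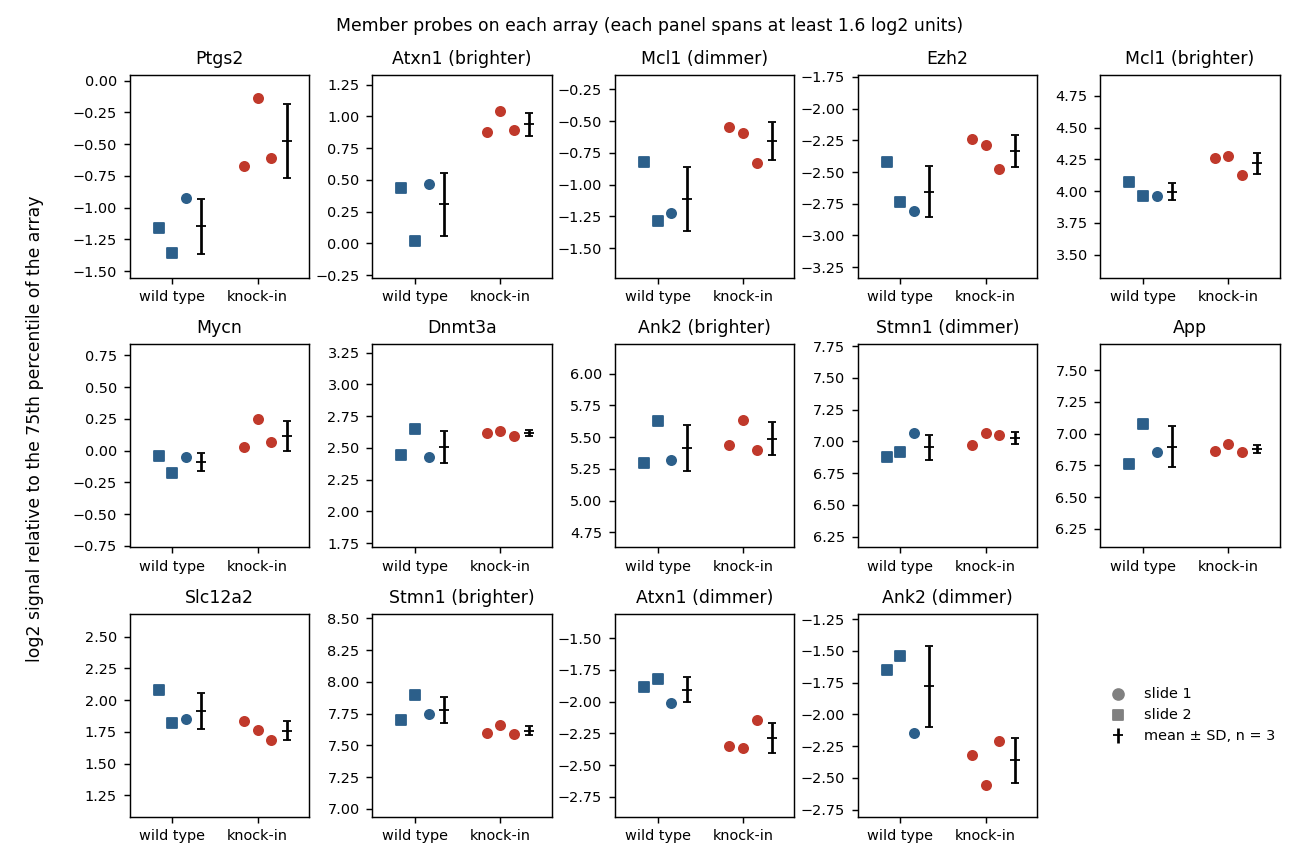
Log2 signal of each member probe relative to the 75th percentile of its array (vertical axis) in wild-type (blue) and knock-in (red) samples, with slide 1 as circles, slide 2 as squares and the mean ± SD of 3 arrays as black bars. Ptgs2, Mycn and the brighter probes of Atxn1 and Mcl1 read higher on all 3 knock-in arrays than on any wild-type array. The dimmer probes of Atxn1 and Ank2 and the brighter Stmn1 probe read lower on all 3.

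The arrays lay on 2 slides that do not match the groups evenly. Slide 1 held the 3 knock-in arrays and wild-type replicate 3, and slide 2 held wild-type replicates 1 and 2. The 75th percentile of the processed signal was 578 and 580 on slide 2 and between 823 and 910 on slide 1. Every array had an RNA integrity number of 10 in the labels. The RNA amount is given as 0.2 µg, except for knock-in replicate 1, where it reads 0.0. Of 7 neuronal and synaptic markers, Snap25, Syp, Syn1, Dlg4, Camk2a, Slc17a7 and Gad1, all were kept and none differed at an unadjusted p under 0.05, and their mean stayed within 0.14 of its average on every array. Markers of striatal neurons did not, and ranged from -1.47 to 2.00 around their average. In RNA of such a fraction, less material from a cell type and less RNA of a gene within that material cannot be told apart.

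Ptgs2 encodes the inducible cyclooxygenase, which starts prostaglandin synthesis and which neurons make on strong activity. Its probe (A_51_P254855, chr1:151954744-151954803 of mm9, plus strand) was printed at 10 spots per array, more than for any other member. The mean processed signals were 554, 827 and 598 in knock-in replicates 1 to 3, against 259, 227 and 434 in wild-type replicates 1 to 3. All knock-in arrays exceeded all wild-type arrays, and wild-type replicate 3, which shares the slide with the knock-in arrays, came closest. On the scaled log2 axis the levels were -0.67, -0.14 and -0.61 in knock-in, against -1.16, -1.36 and -0.92 in wild type. The difference was 0.67 (SE 0.19, 95% interval 0.22 to 1.13), with limma's adjusted p = 0.447. The 10 spots of one array differed by an SD of 0.07 to 0.13 in log2, less than the SD between arrays of 0.29 in knock-in and 0.22 in wild type. Within slide 1 the knock-in mean exceeded wild-type replicate 3 by 0.45, so the direction was the same on one slide and the size smaller.

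The 6 kept genes of prostaglandin synthesis (Ptgs1, Ptges, Ptges2, Ptges3, Ptgds and Pla2g4a) were each taken by their brightest probe. Of these, 1 had a difference above 0, as Ptgs2 had, and 5 below, against 41.7% above 0 among all kept probes. None passed the adjusted threshold. The 1 gene above 0 was Ptgds, a prostaglandin D synthase (0.20, SE 0.25). Ptgs1, the constitutive cyclooxygenase, differed by -0.36 (SE 0.13, limma's adjusted p = 0.460), with no overlap between groups. Ptges, a prostaglandin E synthase, differed by -0.23 (SE 0.12, limma's adjusted p = 0.509).

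Ptgs2 is also induced by neuronal firing, and a list of 12 activity-regulated genes was set beside it. All 12 had differences above 0, with a median of 0.84, against 41.7% above 0 among all kept probes. Of the 12, 10 had an unadjusted p under 0.05 and 7 did not overlap between groups. The shares over all kept probes were 10.4% and 19.9%. Of the 12 genes 0 passed the adjusted threshold. Arc, a gene of synaptic plasticity, differed by 1.16 and the transcription factor gene Fosb by 0.98 (limma's adjusted p = 0.431 for each). Relative to the mean of 6 arrays the list read 0.48, 0.68 and 0.02 in knock-in replicates 1 to 3, against -0.23, -0.25 and -0.70 in wild-type replicates 1 to 3. Ptgs2 on the same footing read 0.14, 0.67 and 0.20 in knock-in, against -0.35, -0.55 and -0.11 in wild type. Both were highest on knock-in replicate 2, while the lowest array was wild-type replicate 3 for the list and wild-type replicate 2 for Ptgs2. Their part in the Ptgs2 value was not tested.

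**Figure D2:**
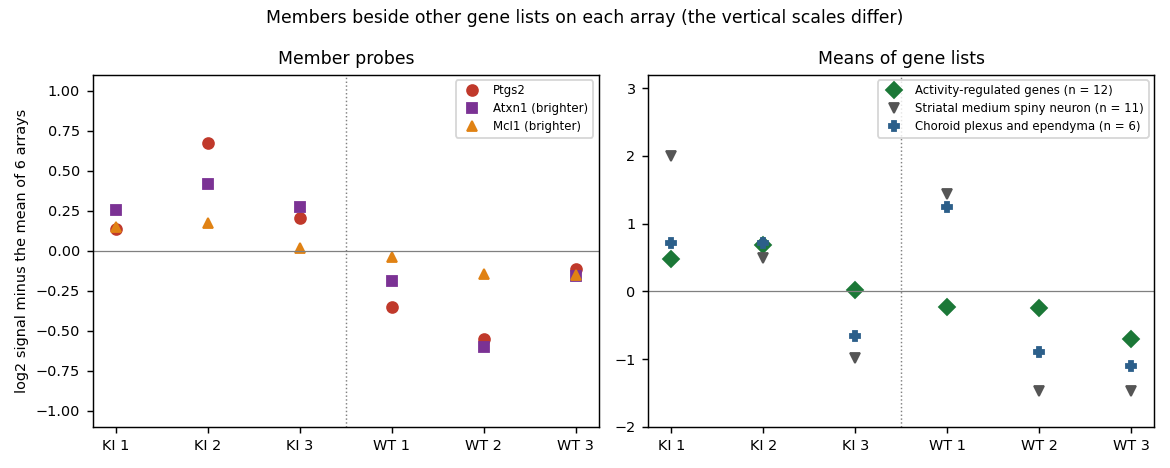
Log2 signal minus the mean of the 6 arrays (vertical axes, of different span) for Ptgs2 and the brighter probes of Atxn1 and Mcl1 (left) and for the means of 3 gene lists (right), on knock-in (KI) and wild-type (WT) replicates 1 to 3. The 3 member probes drawn are among those whose groups did not overlap, whereas 7 of all 14 member probes overlapped. The mean of the activity-regulated list separates the groups. The striatal and choroid plexus means are high on 3 arrays, knock-in 1, knock-in 2 and wild-type 1.

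Marker lists of brain regions and glia also varied among the arrays. The 11 kept striatal markers read 2.00, 0.49 and -0.99 in knock-in replicates 1 to 3, against 1.43, -1.47 and -1.47 in wild-type replicates 1 to 3, relative to the mean of 6 arrays. All 11 had a difference above 0 (median 0.77) and overlapped between groups. For the mean of the markers of choroid plexus and ependyma, 6 kept of 8 listed, the same 3 arrays were high. It read 0.72, 0.71 and -0.66 in knock-in, against 1.24, -0.90 and -1.11 in wild type. Of these 6 markers 4 had a difference above 0 and 2 below (median 0.51), and all overlapped between groups. Like Ptgs2 these lists were above their average on knock-in replicates 1 and 2, and unlike it they were below on knock-in replicate 3 and above on wild-type replicate 1. The 6 oligodendrocyte markers read 0.16, 0.39 and -0.03 in knock-in, against 0.10, -0.47 and -0.15 in wild type, and all 6 had a difference above 0 (median 0.30). They were highest on knock-in replicate 2 and lowest on wild-type replicate 2, as were Ptgs2 and the brighter Atxn1 probe. The 6 astrocyte markers read 0.11, 0.13 and -0.03 in knock-in, against 0.06, -0.13 and -0.13 in wild type, again highest on knock-in replicate 2; 4 of the 6 had a difference above 0 (median 0.087). The part of sample composition in the values of the member probes was not tested.

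Atxn1 encodes ataxin-1, a transcriptional corepressor whose polyglutamine expansion causes spinocerebellar ataxia. Its 2 probes gave opposite directions. The brighter probe (A_52_P14453, chr13:45650989-45651048 of mm9, minus strand) starts at base 4659 of its transcript and the dimmer one (A_55_P2045528, chr13:45646886-45646945) at base 8786. They lie 4103 bases apart, and the array annotation gives them 3 RefSeq transcripts in common.

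The brighter Atxn1 probe had processed signals of 1624, 1867 and 1689 in knock-in replicates 1 to 3, against 782, 588 and 1137 in wild-type replicates 1 to 3. All knock-in arrays were higher, and wild-type replicate 2 was the lowest. In scaled log2 units the mean was 0.94 ± 0.09 in knock-in and 0.31 ± 0.25 in wild type (SD, n = 3 each). The difference was 0.63 (SE 0.15, 95% interval 0.27 to 0.99), or 1.55-fold, with limma's adjusted p = 0.431. Within slide 1 it was 0.47.

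The dimmer Atxn1 probe had processed signals of 174, 177 and 205 in knock-in, against 157, 165 and 204 in wild type, which overlap before scaling. After scaling, the levels were -2.35, -2.36 and -2.15 in knock-in, against -1.89, -1.82 and -2.01 in wild type, with all knock-in arrays below. The difference was -0.38 (SE 0.12), or 0.768 of wild type, with limma's adjusted p = 0.447, and -0.27 within slide 1. The separation of the groups thus appears only once the arrays are scaled.

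The contrast between the 2 Atxn1 probes does not depend on that scaling, because both are read on the same array. The brighter minus the dimmer probe was 3.23, 3.40 and 3.04 in knock-in replicates 1 to 3, against 2.32, 1.84 and 2.48 in wild-type replicates 1 to 3. The groups did not overlap, and the contrast was 1.01 higher in knock-in (exact two-sided permutation p = 0.1, the smallest possible). On slide 1 alone it was 0.74. The transcriptional repressor Cic, the main partner of ataxin-1, differed by -0.12 (SE 0.11) and the paralog Atxn1l by -0.07 (SE 0.11); both overlapped between groups.

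**Figure D3:**
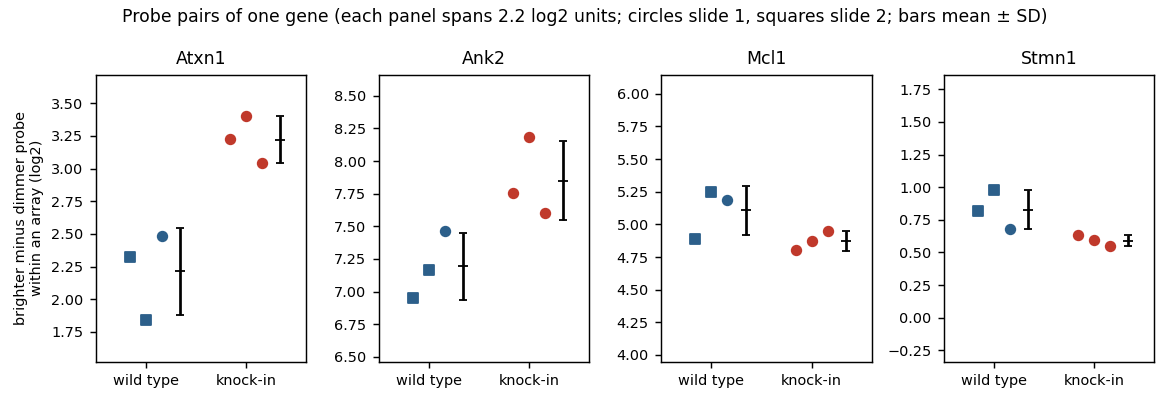
Difference between the brighter and the dimmer probe of one gene within each array (log2, vertical axis; every panel spans 2.2 units) in wild-type (blue) and knock-in (red) samples, with circles for slide 1, squares for slide 2 and black bars for the mean ± SD of 3 arrays. The groups separate for Atxn1 and Ank2, where knock-in is higher, and by less for Stmn1, where it is lower; they overlap for Mcl1.

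Ank2 encodes ankyrin-B, an adaptor that ties ion channels and transporters to the spectrin skeleton. Its brighter probe (A_55_P2131288, chr3:126624615-126624674 of mm9, minus strand) is annotated to RefSeq and Ensembl transcripts. The dimmer one (A_55_P2131283, chr3:126732394-126732453), 107779 bases away, is assigned to a single Ensembl transcript, and the pair shares 0 annotated transcripts.

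The brighter Ank2 probe read 5.44, 5.63 and 5.40 in knock-in, against 5.30, 5.63 and 5.32 in wild type, so the groups overlapped. Its difference was 0.07 (SE 0.14, 95% interval -0.25 to 0.40), and leaving out one array moved it from 0.00087 without knock-in replicate 2 to 0.18 without wild-type replicate 2. The dimmer probe read -2.32, -2.55 and -2.21 in knock-in, against -1.65, -1.54 and -2.14 in wild type. Both wild-type arrays of slide 2 stood apart from the other 4, and wild-type replicate 3 lay close to the knock-in arrays. The difference of the dimmer probe was -0.58 (SE 0.19), or 0.668 of wild type, with limma's adjusted p = 0.453, and within slide 1 it shrank to -0.22. Before scaling, its processed signals overlapped, at 177, 155 and 197 in knock-in, against 184, 199 and 186 in wild type. Among wild-type arrays alone, replicate 3 differed from the mean of the slide 2 arrays by -0.55.

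Within arrays the contrast between the Ank2 probes was 0.66 higher in knock-in (exact two-sided permutation p = 0.1, no overlap) and 0.39 higher on slide 1 alone. Of the other ankyrins and the beta spectrins listed, Ank3 and Ank1 were kept, at 0.09 (SE 0.13) and -0.11 (SE 0.16).

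Mcl1 encodes a short-lived relative of BCL2 that protects cells from apoptosis. The brighter probe (A_51_P238786, chr3:95466855-95466914 of mm9, plus strand) had processed signals of 16889, 17637 and 15867 in knock-in, against 9712, 9031 and 12783 in wild type. After scaling, the levels were 4.26, 4.28 and 4.12 against 4.07, 3.96 and 3.96, narrowly without overlap. The difference was 0.22 (SE 0.10), or 1.17-fold, with limma's adjusted p = 0.494. The dimmer probe (A_52_P93933, chr3:95465543-95465602) had processed signals of 606, 601 and 512 in knock-in, against 327, 238 and 352 in wild type. Its difference after scaling was 0.45 (SE 0.16), or 1.37-fold, with limma's adjusted p = 0.459. It overlapped in 1 pair of arrays, knock-in replicate 3 at -0.83 and wild-type replicate 1 at -0.82. Both probes thus read higher on average, and the contrast between them was -0.23 with overlap (exact two-sided permutation p = 0.2). On slide 1 alone the values were 0.26 and 0.57.

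Of 6 kept relatives of Mcl1, 3 had a difference above 0 and 3 below, against 41.7% above 0 among all kept probes. None passed the adjusted threshold. The survival gene Bcl2 read higher on all knock-in arrays (0.38, SE 0.14, limma's adjusted p = 0.458). Pmaip1, whose product NOXA binds MCL1, differed by -0.43 (SE 0.26), Bax, an executioner of the same pathway, by 0.33 (SE 0.39) and Bcl2l2 by 0.08 (SE 0.11), each with overlap.

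Ezh2 is the histone methyltransferase of Polycomb repressive complex 2. Its probe (A_55_P2041397, chr6:47480307-47480366 of mm9, minus strand) had processed signals of 187, 186 and 163 in knock-in, against 108, 87.1 and 118 in wild type. After scaling, the levels were -2.24, -2.29 and -2.48 in knock-in, against -2.42, -2.74 and -2.80 in wild type, where knock-in replicate 3 overlaps with wild-type replicate 1. The difference was 0.32 (SE 0.14), or 1.25-fold, with limma's adjusted p = 0.489, and 0.47 within slide 1. With normexp background correction it was 0.13. Of 6 kept genes of the complex, 2 differed by more than 0, as Ezh2 did, and 4 by less. The share above 0 over all kept probes was 41.7%. The histone-binding subunit gene Rbbp4 read lower on all knock-in arrays (-0.36, SE 0.13, limma's adjusted p = 0.460), as did the paralog Ezh1 (-0.14, SE 0.10) and Rbbp7 (-0.13, SE 0.11). The recruiting subunit gene Jarid2 differed by 0.23 (SE 0.21), with overlap.

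Dnmt3a, the de novo DNA methyltransferase of postnatal neurons, is read by a probe at chr12:3914320-3914379 of mm9 (A_55_P2178084, plus strand). It read 2.62, 2.64 and 2.59 in knock-in, against 2.44, 2.65 and 2.43 in wild type, with overlap through wild-type replicate 2. The difference was 0.11 (95% interval -0.15 to 0.37), and it was 0.18 without wild-type replicate 2 or with normexp, 0.067 without wild-type replicate 3 and 0.19 within slide 1. Among 7 listed genes of DNA methylation, the maintenance enzyme gene Dnmt1 read higher on all knock-in arrays (0.19, SE 0.12). Dnmt3b differed by -0.24 (SE 0.20) and Tet3 by -0.11 (SE 0.16), and 0 of the 7 passed the adjusted threshold.

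Mycn, a MYC family transcription factor of progenitor cells, is read at chr12:12943193-12943252 of mm9 (A_52_P536494, minus strand). Its levels were 0.03, 0.25 and 0.07 in knock-in, against -0.04, -0.17 and -0.05 in wild type, without overlap but with a gap of 0.08. The difference was 0.21 (SE 0.11), or 1.15-fold, with limma's adjusted p = 0.522. Its paralog Myc read higher by 0.45 (SE 0.13, limma's adjusted p = 0.447), again on all knock-in arrays. Mycl1 differed by 0.10 (SE 0.22) and their dimerisation partner Max by -0.04 (SE 0.11).

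App encodes the amyloid precursor protein. Its probe (A_55_P2012201, chr16:84954712-84954771 of mm9, minus strand, 2 spots per array) read 6.86, 6.92 and 6.86 in knock-in, against 6.76, 7.08 and 6.85 in wild type. The knock-in values fell inside the wild-type range. The difference was -0.02 (SE 0.12, 95% interval -0.30 to 0.27), and its sign turned under several processings. Of 9 genes for the relatives and secretases of App, 2 differed by more than 0 and 7 by less, 0 without overlap. Over all kept probes 41.7% had a difference above 0 and 19.9% did not overlap. The gamma-secretase subunit gene Psenen differed by -0.13 (SE 0.14), and the paralogs Aplp1 and Aplp2 by 0.10 (SE 0.12) and -0.09 (SE 0.11).

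Stmn1 encodes stathmin, which destabilises microtubules. The brighter probe (A_55_P2068663, chr4:134029695-134029754 of mm9, plus strand), which holds the TACTGTA match shown above, read 7.60, 7.66 and 7.59 in knock-in, against 7.70, 7.89 and 7.75 in wild type. All knock-in arrays were lower, by 0.16 on average (difference -0.16, SE 0.10, limma's adjusted p = 0.554). It was -0.11 without wild-type replicate 2, -0.014 with quantile normalization and -0.0046 with the authors' value table. Before scaling, the processed signals of this probe overlapped. They were 171300, 183450 and 175710 in knock-in, against 120150, 138090 and 176690 in wild type. The dimmer probe (A_55_P2043862, chr4:134029355-134029414), 340 bases upstream and without a match, read 6.97, 7.06 and 7.05 in knock-in, against 6.88, 6.92 and 7.06 in wild type, a difference of 0.07 (SE 0.10) with overlap. It was 0.036 without wild-type replicate 1, 0.13 without wild-type replicate 3 and -0.038 within slide 1. Within arrays, the brighter minus the dimmer Stmn1 probe was 0.24 lower in knock-in (contrast -0.24, exact two-sided permutation p = 0.1), and the contrast shrank to -0.09 on slide 1 alone. The related genes Stmn2, Stmn3 and Stmn4 differed by -0.17, -0.11 and -0.15, each with an unadjusted p above 0.05.

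Slc12a2 encodes NKCC1, the cotransporter that brings chloride into immature neurons. Its probe (A_55_P2099448, chr18:58106416-58106475 of mm9, plus strand) read 1.83, 1.77 and 1.68 in knock-in, against 2.08, 1.82 and 1.85 in wild type. The groups overlapped narrowly, and the difference was -0.16 (SE 0.12, 95% interval -0.44 to 0.12). It was -0.077 without wild-type replicate 1 and -0.093 within slide 1. Slc12a5, the chloride exporter KCC2 that opposes it in mature neurons, differed by -0.09 (SE 0.10), and Slc12a4 by -0.16 (SE 0.11). Slc12a7 differed by 0.17 (SE 0.19).

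**Figure D4:**
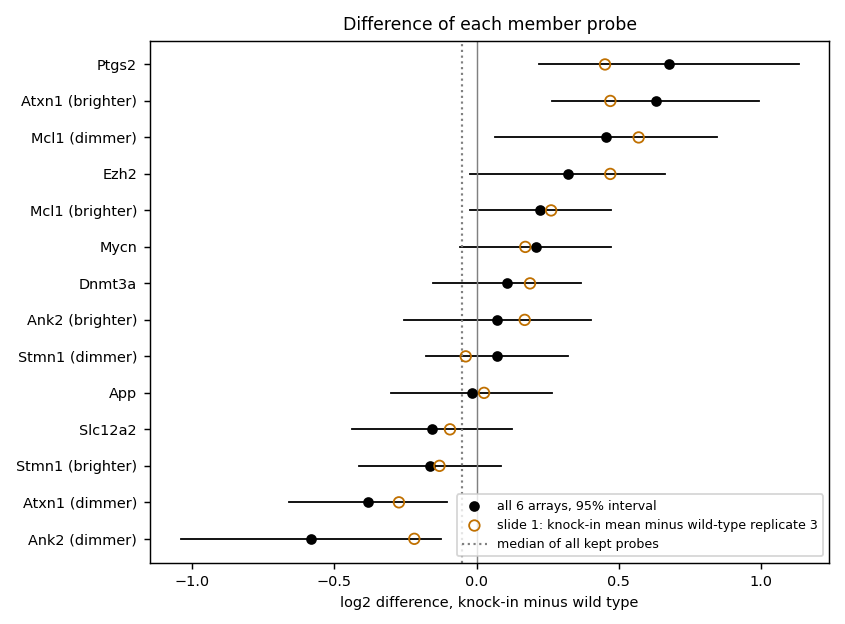
Log2 difference, knock-in minus wild type, of each member probe (horizontal axis), with black points and 95% intervals for all 6 arrays, open circles for the knock-in mean minus wild-type replicate 3 on slide 1, and a dotted line at the median of all kept probes, -0.05. The intervals of 5 probes leave out 0 before adjustment, and the 2 estimates have opposite signs for App and the dimmer Stmn1 probe.

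Differences also varied with the signal level of a probe. Kept probes were divided by mean level into 10 bins of equal size, a division added after seeing the data. In the brightest bin, which holds both Stmn1 probes, App and the brighter Ank2 probe, the median difference was -0.098, the quartiles were -0.17 and -0.011, and 23% of probes had a difference above 0. App and the brighter Stmn1 probe lay between these quartiles, while the dimmer Stmn1 and the brighter Ank2 probe lay above them. In the bin of the dimmer Atxn1 and Ank2 probes the median was -0.046, with quartiles at -0.23 and 0.16, and both probes lay below the lower one. In the bins of Ptgs2 and of the brighter Atxn1 probe the upper quartiles were 0.19 and 0.15, and both probes lay above them.

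**Figure D5:**
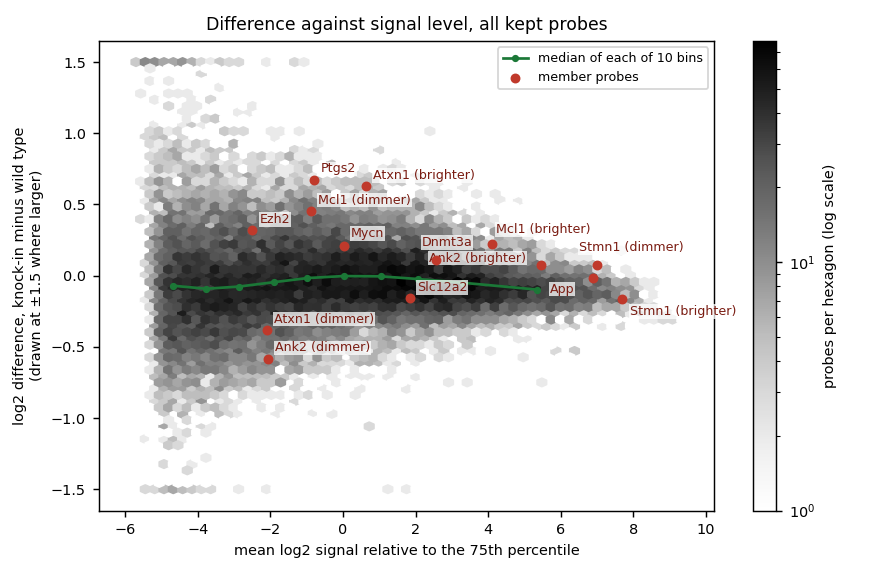
Log2 difference, knock-in minus wild type (vertical axis, drawn at ±1.5 where larger), against mean log2 signal (horizontal axis) for the 29318 kept probes as shaded hexagons, with the median of each of 10 bins in green and the 14 member probes in red. The green line reaches -0.098 in the brightest bin, and Ptgs2 and the brighter Atxn1 probe stand highest among the members.

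Other published targets of miR-101, a further list of 21 genes, went both ways. Of 19 kept, 11 had a difference above 0 and 8 below, against 41.7% above 0 among all kept probes. Their median was 0.045, and 0 passed the adjusted threshold. At an unadjusted p under 0.05, 4 read higher and 1 lower, against 4.29% and 6.13% of all kept probes. Fmr1, the gene in the title of the series, differed by 0.82 (SE 0.10, limma's adjusted p = 0.326) on its brightest probe. The phosphatase gene Dusp1 (0.90, SE 0.24) and Fos (0.94, SE 0.33) also belong to the activity-regulated list, and the receptor gene Tgfbr1 differed by 0.27 (SE 0.10). The lymphangiogenic factor gene Vegfc, named after its value was seen, was the 1 that read lower (-0.35, SE 0.13).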

How the data were processed

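RNA was labelled with Cy3, per the labels' protocols. Per the file headers, Agilent Feature Extraction 10.7.3.1 gave the deposited processed intensity of each spot, detrended within the array and not normalized between arrays, with probe coordinates on mm9. A log2 value table of the authors ranks spots as the raw median intensity does; its normalization between arrays is not stated in the labels or headers.

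Log2 processed intensities were scaled to the 75th percentile of each array's 59305 non-control spots. Outlier spots were left out and spots of a probe averaged. Probes well above background on at least 3 of 6 arrays were kept, 29318 of 55681, and each was fitted with limma 3.58.1 in R 4.3.3 (lmFit, eBayes, two-sided, Benjamini-Hochberg over all kept probes). On simulated data for this comparison (29318 probes), 42% of probes changed by 1 log2 unit and 85% of those changed by 2 were called. So were 4 unchanged probes. The simulated noise was independent between arrays and had no slide effect. Changes below 1 log2 unit, where all member differences lie, were not simulated. Depth is not counted on arrays; their number, 3 a group, limits the precision.

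Names are those in the files; 13 of 14 member probes had an accession with the same symbol in RefSeq (GRCm38.p6). Exons and untranslated regions were not annotated. All members are named, and of each gene list up to 4 genes of smallest unadjusted p; further genes named were chosen after their values were seen. Some genes of these lists are not reported here. Gene lists were read by each gene's brightest kept probe. The members and lists were chosen with earlier results of these data known. Alternatives were other background corrections, normalizations, filters, probe choices and moderation, slide or replicate number as a block, and leaving out each array.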

Additional observations from a re-analysis of the deposited data

How the results depend on the processing

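Over 19 alternatives, 0 member probes passed limma's adjusted threshold, and 254 of 262 alternative values kept the direction. The 8 that turned belong to App and the dimmer Stmn1 probe. The filters, the brightest-probe choice, keeping outlier spots, the other moderation and the replicate block left the member differences as in the main processing. Those values could not turn, and slide 1 only repeats the values of slide as a fixed block. The 254 therefore overstates how many values were put to a check. App, at -0.017 in the main processing, read 0.045 with normexp, 0.073 with quantile normalization, 0.13 with the authors' value table, 0.026 with slide as a fixed block or slide 1 only, and 0.072 without wild-type replicate 2; leaving out one array gave -0.085 to 0.072. The dimmer Stmn1 probe read -0.038 with slide as a fixed block or slide 1 only. Why these small values turned was not tested. The median over the member probes lay between 0.06 and 0.17. Leaving out one array moved it from 0.06 to 0.17, the Atxn1 probe contrast from 0.82 to 1.14, the Ank2 contrast from 0.49 to 0.79 and the Stmn1 contrast from -0.31 to -0.16. The brighter Stmn1 probe came to -0.014 with quantile normalization and -0.00458 with the authors' value table.

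The count of 2 called probes became 1 with normexp, 0 with the authors' value table, 0 with no filter on dim probes, 0 with probes above background on all 6 arrays, 10 with slide as a fixed block and 4 with slide 1 only; leaving out one array gave 0 to 5. At an unadjusted p under 0.05, limma gave between 1298 and 5421 probes over these alternatives. Of the 14 member probes, 5 were under it in the main processing, beside 3056 of all 29318 kept probes. The member count was 7 with quantile normalization, beside 2996 of all, and 5 with normexp, beside 5421. It was 0 with slide as a fixed block, beside 1298. With only the brightest probe of each gene, 2 of 10 member probes were under it, beside 2280 of 20996. With one array left out, between 2 and 5 member probes were under it, beside 1311 to 4580 of all kept probes. With the replicate block, 0 probes were called, and Ptgs2 stayed at 0.67 (limma's adjusted p = 0.470). Whether the numbers pair the samples is not settled by these data. Deviations of same-numbered samples correlated at 0.36, -0.04 and 0.22, and those of differently numbered samples at -0.35 to 0.13. The slide block and slide 1 only rest on wild-type replicate 3 as the one control.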
